A study of Equus caballus with 4 samples.

Results

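Transcripts of the NRF2 pathway were compared between differentiating equine satellite cells given gamma-oryzanol (GO) and hydrogen peroxide (H2O2) and control cells. The genes examined were 10 by name: the NRF2 targets HMOX1, NQO1, GCLC, GCLM, TXNRD1, TXN and SRXN1, and the regulators NFE2L2, KEAP1 and BACH1. They were found by their exact symbol in the array annotation, where 8 of the 10 genes had a probe and 10 probes in all carried these symbols, of 43603 gene probes on the array. HMOX1 had a higher signal with GO and H2O2 on 4 of 4 arrays, NQO1 had a lower one on 4 of 4, and the other 6 genes did not pass the test.

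Satellite cells are the stem cells of skeletal muscle, which fuse into myotubes when they differentiate. They came from m. semitendinosus and were a single primary line, which the study selected from several prepared from young stallions, so that the replicates are cultures of 1 line. Treated cells received 0.125 µM GO, the ferulic acid esters of sterols found in rice bran oil, for 24 h at day 3 of differentiation, with 3 mM H2O2 during the last 1 h. Control cells received no GO, and the study's methods state that their medium held the DMSO vehicle. The sample labels leave it unstated whether the control cells were given H2O2, and the study's text describes them as incubated with it. Each of the 4 arrays, all on 1 slide, was hybridised with Cy5-labelled RNA of treated cells (red) and Cy3-labelled RNA of control cells (green). No dyes were swapped, so that an effect of dye and an effect of treatment cannot be told apart. The design gives 4 control replicates, but the descriptions of all 4 arrays give the control the same replicate number. If the control RNA was shared, the spread over arrays leaves out the spread of the control cultures.

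NRF2, the product of NFE2L2, is a transcription factor held in the cytoplasm by KEAP1, which presents it to a CUL3 ubiquitin ligase for degradation. Oxidants and electrophiles modify cysteines of KEAP1, NRF2 then accumulates, and with a small MAF partner it binds antioxidant response elements in the promoters of detoxification, glutathione and thioredoxin genes. BACH1 is a haem-sensitive repressor at the same elements, and HMOX1 is among the genes most closely tied to it. In muscle cells the pathway is known for its part in the defence against peroxides.

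The probes on which the results turn are printed 5′ to 3′, because each gene is represented by very few of them. HMOX1 rested on 1 probe alone. NQO1 had 2 probes that overlap by 40 bases, shown in capitals, and are thus not independent. GCLC had 2 probes that lie 11 bases apart.
HMOX1: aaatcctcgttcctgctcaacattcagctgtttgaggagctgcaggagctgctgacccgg
NQO1, brighter probe: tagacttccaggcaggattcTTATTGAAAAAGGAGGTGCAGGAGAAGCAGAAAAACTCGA
NQO1, dimmer probe: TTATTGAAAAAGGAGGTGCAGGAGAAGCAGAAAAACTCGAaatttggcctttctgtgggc
GCLC, brighter probe: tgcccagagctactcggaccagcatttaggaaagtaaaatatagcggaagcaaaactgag
GCLC, dimmer probe: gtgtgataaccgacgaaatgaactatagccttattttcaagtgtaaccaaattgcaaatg

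Positions are those of the array annotation, in the horse build EquCab1. The HMOX1 probe lies at chr28:32851501-32852382 on the + strand, a stretch of 882 bases for a probe of 60, which leaves 822 genomic bases that are not in the probe. The NQO1 probes lie on the - strand, at chr3:19655705-19655764 (brighter) and chr3:19655685-19655744 (dimmer). The GCLC probes lie on the - strand, at chr20:44428128-44428187 and chr20:44428199-44428258. The probes of GCLM (chr5:44185112-44185171, +), TXNRD1 (chr28:27621705-27621764, +), TXN (chr25:20106584-20106643, +) and NFE2L2 (chr18:44067783-44067842, -) are also placed, and that of KEAP1 is on unplaced sequence. Exons and UTRs were not assigned, because no annotation of this build was used here.

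Values are log2 ratios of red over green after background correction and normalisation of each array, so that 0 means an equal signal and a positive value a higher signal with GO and H2O2. Tests were run on the 24230 probes whose red signal, or whose green signal, stood well above background on each of the 4 arrays. The test was limma's, of the mean ratio against 0, with Benjamini-Hochberg adjustment over those probes and a threshold of 0.05. Of all tested probes 17.1% passed, 9.49% with a higher and 7.59% with a lower signal, and the median ratio was 0.00. Of the 10 probes of the pathway, 9 were tested and 2 passed, 1 higher and 1 lower, which is close to the share over the whole array. The count is therefore not a result about these genes. These are cell populations, in which fewer cells expressing a gene and less RNA per cell cannot be told apart.

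The cells carried muscle transcripts. Of 10 marker genes of satellite cells and myotubes 9 were on the array, and all 9 were well above background, while the 4 endothelial markers were not above background on any array and no adipocyte marker was tested. Some marker levels differed between the channels: 6 of the 9 muscle markers passed with a higher signal, and MYF5, MYOD1 and DES did not pass. Over all tested named genes 8.73% passed with a higher signal. The summed log2 signal of all 9 was 18.16 to 18.35 in the treated channel and 17.84 to 18.01 in the control channel, without overlap. How often other sets of genes lacked overlap was not computed. Of 4 fibroblast markers tested 1 passed, THY1 with a higher signal (0.28 ± 0.14, limma adjusted p = 0.0290). COL1A2 (0.30 ± 0.30) and COL3A1 (0.23 ± 0.27) did not pass, nor did DCN, which was below 0 on all 4 arrays (-0.10 ± 0.05). Of 2 leukocyte markers tested 1 passed, CD14 with a lower signal (-0.17 ± 0.06, limma adjusted p = 0.0385), and CD68 did not (0.00 ± 0.06). The fibroblast markers' summed level was 18.5 to 18.7 in the treated and 18.2 to 18.5 in the control channel, that of the leukocyte markers was 11.70 to 11.89 and 11.85 to 12.04, and CSF1R was not above background. The smooth muscle and pericyte markers ACTA2 and CSPG4 were well above background on 4 of 4 arrays in both channels and did not pass, and that list summed to 13.2 to 13.6 in the treated and 13.2 to 13.4 in the control channel. PAX7, COL1A1, PTPRC, CD163 and PLIN1 had no probe under their symbol. The part of cell composition or of the stage of differentiation in the results on NRF2 genes was not tested.

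HMOX1 encodes the inducible haem oxygenase, which breaks haem into biliverdin, carbon monoxide and free iron. The background-subtracted intensity of its probe in the treated channel was 258, 213, 221 and 81.8 on replicates 1 to 4, and in the control channel it was 152, 123, 88.3 and 88.5. On replicate 4 the treated signal was thus below the control signal before the dyes were normalised. After normalisation the log2 ratio was 0.50, 0.57, 0.85 and 0.16 on replicates 1 to 4. All were above 0, and the lowest was that of replicate 4, which also had the lowest normalised signal in both channels. The mean was 0.52 ± 0.28 (SD, n = 4), or 1.43-fold (95% confidence interval 1.21 to 1.70), with a limma adjusted p of 0.0251. Only 0.644% of the tested probes had a higher mean ratio. The channel values themselves overlapped between the groups, at log2 signals of 7.24 to 8.23 in the treated and 7.08 to 7.54 in the control channel, and its level in both channels differed between arrays. The probe was well above background in both channels on 4 of 4 arrays.

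The size and the call of the HMOX1 difference depended on the arrays and on the processing. Agilent's own processed signals gave 0.91. The call was lost without replicate 1 (0.53, limma adjusted p = 0.0989), without replicate 3 (0.41, limma adjusted p = 0.0642) and without replicate 4 (0.64, limma adjusted p = 0.0734), and it held without replicate 2 (0.50, limma adjusted p = 0.0365).

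**Figure D1:**
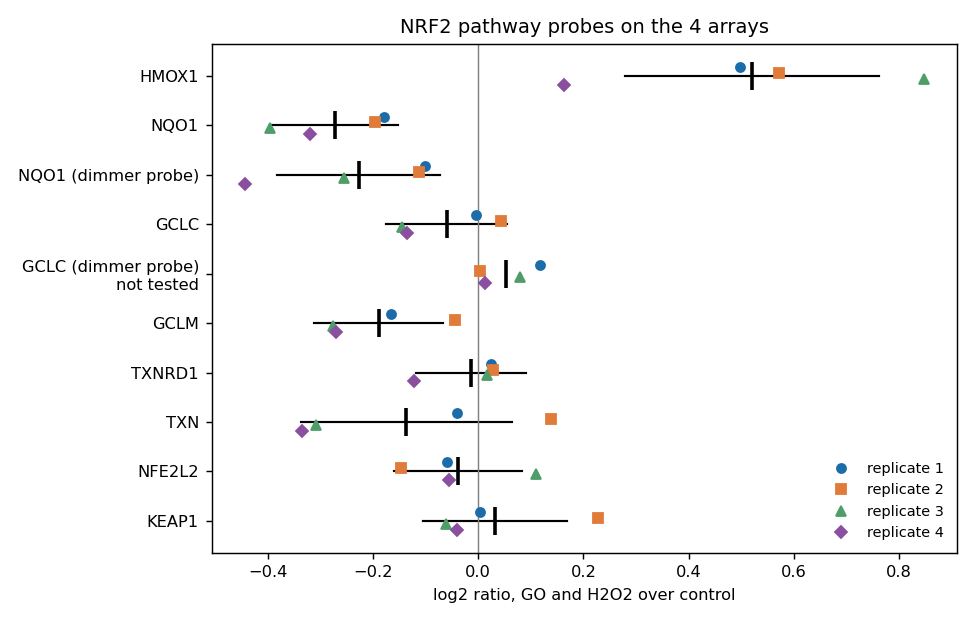
Log2 ratio (GO and H2O2 over control) of each probe on the horizontal axis, with 1 symbol per array, the mean as a vertical tick and its 95% confidence interval as a line for tested probes. The 4 HMOX1 values lie between 0.16 and 0.85, those of the brighter NQO1 probe lie between -0.40 and -0.18, and the intervals of GCLC, TXNRD1, TXN, NFE2L2 and KEAP1 include 0.

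NQO1 encodes a quinone reductase that uses NADH or NADPH and is widely used as a readout of NRF2 activity. The brighter of its probes had log2 ratios of -0.18, -0.20, -0.40 and -0.32 on replicates 1 to 4, all below 0. Before the dyes were normalised, the background-subtracted intensity on replicate 2 was higher in the treated channel (459) than in the control channel (450). The mean was -0.27 ± 0.10 (SD, n = 4), or 0.828-fold (95% confidence interval 0.762 to 0.900), with a limma adjusted p of 0.0230. Here the channels did not overlap, at log2 signals of 8.726 to 9.041 in the treated and 9.046 to 9.437 in the control channel. The margin was narrow, and the share of all tested probes without overlap was not computed. The dimmer probe had ratios of -0.10, -0.11, -0.25 and -0.44. It was also below 0 on 4 of 4 arrays, and its mean of -0.23 ± 0.16 missed the threshold (limma adjusted p = 0.0553). Its channel values overlapped, at 8.44 to 8.61 in the treated and 8.58 to 8.88 in the control channel. Replicate 4 was the only array on which the dimmer probe gave the lower ratio of the pair. The call of the brighter probe was lost without replicate 1 (-0.30, limma adjusted p = 0.0820), replicate 3 (-0.23, limma adjusted p = 0.0674) or replicate 4 (-0.26, limma adjusted p = 0.0966).

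GCLC and GCLM encode the catalytic and the modifier subunit of glutamate-cysteine ligase, the enzyme of the rate-limiting step of glutathione synthesis. GCLM had log2 ratios of -0.17, -0.04, -0.28 and -0.27 on replicates 1 to 4. All were below 0. The channel values did not overlap, by a narrow margin, at 9.01 to 9.27 in the treated and 9.28 to 9.35 in the control channel. How many of all tested probes lacked overlap was not computed. On replicate 2 the background-subtracted intensity before dye normalisation was 635 in the treated and 545 in the control channel. The mean was -0.19 ± 0.11 (SD, n = 4, 95% confidence interval -0.31 to -0.07), just short of the threshold (limma adjusted p = 0.0502). It was past the threshold in 5 of 16 other settings. These were Agilent's processed signals and the authors' value table, which hold the same ratios (-0.25, limma adjusted p = 0.0489), limma with trend and robust estimation (limma adjusted p = 0.0457), the mean over probes (limma adjusted p = 0.0489), and the fit without replicate 2, the array with the smallest change (-0.24, limma adjusted p = 0.0306).

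The brighter GCLC probe had ratios of 0.00, 0.04, -0.15 and -0.14, with a mean of -0.06 ± 0.09 (SD, n = 4). The limma adjusted p was 0.400 and the 95% confidence interval of the mean ran from -0.18 to 0.05. The dimmer GCLC probe was well above background on 1 array only and was not tested, and its ratios of 0.12, 0.00, 0.08 and 0.01 were of the opposite sign to the brighter probe on replicates 1, 3 and 4. The GCLC probes gave no common direction.

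TXN is the small redox protein thioredoxin, and TXNRD1 is the cytosolic reductase that returns it to its reduced form with NADPH. The TXN probe was printed in 5 spots per array, and its log2 ratio was -0.04, 0.14, -0.31 and -0.34 on replicates 1 to 4. The SD over the 5 spots of an array was 0.0149, 0.0214, 0.0335 and 0.0946, against an SD of 0.23 over the 4 arrays. Replicates 3 and 4 were low and replicate 2 was high. Before the dyes were normalised, the background-subtracted intensity was higher in the treated than in the control channel on replicates 1 to 3. The values were 25481 and 19791 on replicate 1, 25906 and 16542 on replicate 2, and 14615 and 14126 on replicate 3. On replicate 4 the treated intensity was lower (16621 and 16846). The mean was -0.14 ± 0.23 (SD, n = 4, 95% confidence interval -0.34 to 0.06, limma adjusted p = 0.278). Median centring in place of loess put the mean at -0.04.

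TXNRD1 had ratios of 0.02, 0.03 and 0.02 on replicates 1 to 3 and -0.12 on replicate 4. The mean was -0.01 ± 0.07 (SD, n = 4), with a limma adjusted p of 0.844 and a 95% confidence interval of -0.12 to 0.09. Its channel values overlapped, at 7.23 to 7.46 in the treated and 7.25 to 7.44 in the control channel. The TXNRD1 and HMOX1 probes lie on the same chromosome, 5229736 bases apart. SRXN1, which encodes the sulfiredoxin that repairs over-oxidised peroxiredoxins, had no probe under its symbol.

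The regulators did not pass the test either. NFE2L2 had ratios of -0.06, -0.15, 0.11 and -0.06 on replicates 1 to 4, with a mean of -0.04 ± 0.11 (SD, n = 4, 95% confidence interval -0.16 to 0.08, limma adjusted p = 0.618). KEAP1 had ratios of 0.00, 0.23, -0.06 and -0.04, with a mean of 0.03 ± 0.13 (SD, n = 4, 95% confidence interval -0.10 to 0.17, limma adjusted p = 0.712). The signs differed between arrays for both genes, and the KEAP1 mean was -0.03 without replicate 2. BACH1 had no probe under its symbol. These are transcript levels, and NRF2 is controlled largely through the stability of the protein, which the arrays do not measure.

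**Figure D2:**
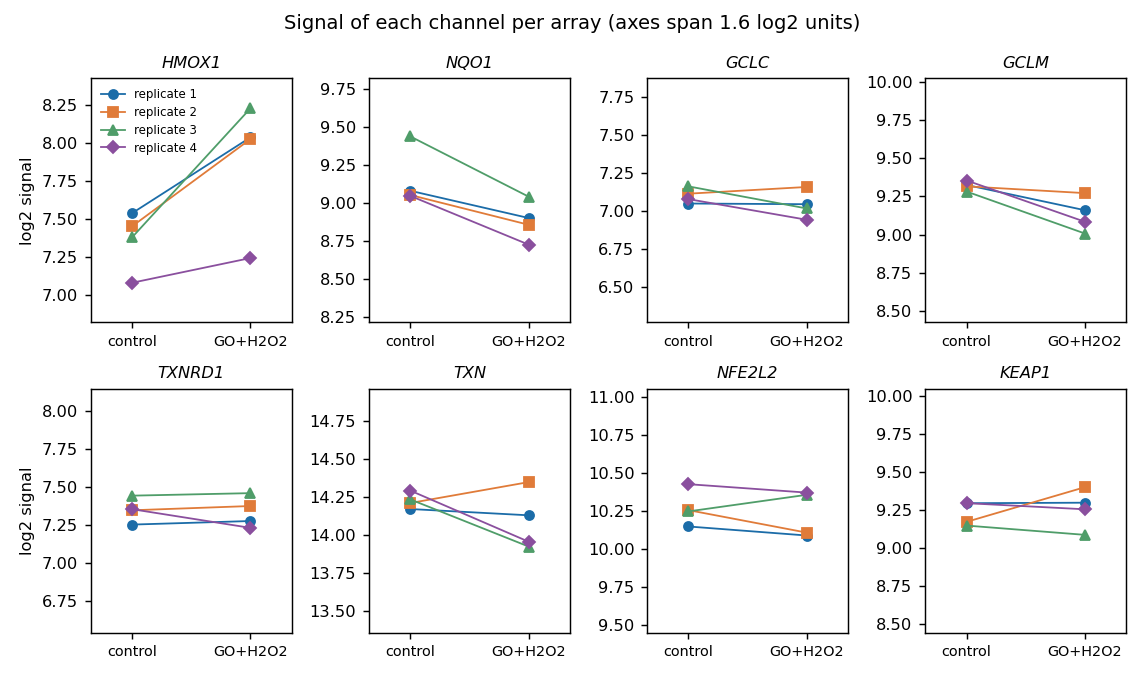
Log2 signal of the brightest tested probe of each gene in the control and the treated channel, joined by a line per array, on axes that each span 1.6 log2 units. The HMOX1 lines rise and the NQO1 and GCLM lines fall on all 4 arrays, and the lines of the other 5 genes run in both directions.

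HMOX1 was then set against the other NRF2 targets on each array, which addressed whether the targets moved together. The mean log2 ratio of NQO1, GCLC, GCLM, TXNRD1 and TXN was -0.07, -0.01, -0.22 and -0.24 on replicates 1 to 4, with a mean of -0.13 ± 0.11 (SD, n = 4). HMOX1 exceeded it by 0.57, 0.58, 1.07 and 0.40. HMOX1 was the highest of the 6 targets on each of the 4 arrays. On replicate 4, where HMOX1 had its smallest ratio, the other 5 were all below 0, and the highest of them was -0.12. On replicate 2 the highest of the other 5 was TXN at 0.14, and only 2 of the 5 were below 0. The mean excess was 0.65 ± 0.29 (SD, n = 4), a 1.57-fold difference in ratio.

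The excess of HMOX1 over the single targets was positive in 4 of 4 arrays for each of the 5. It was 0.79 ± 0.32 over NQO1 (0.48 to 1.24 on the arrays), 0.71 ± 0.29 over GCLM and 0.66 ± 0.34 over TXN. It was 0.58 ± 0.29 over GCLC and 0.53 ± 0.23 over TXNRD1, the smallest of the 5. An exact two-sided sign-flip permutation test gave p = 0.125 for each (0.125 after Benjamini-Hochberg adjustment over the 5), which is the smallest value that 4 arrays allow, so that this design cannot reach the threshold for a single difference. The 5 differences share the HMOX1 probe and are not independent. All kept their direction under the other processings and with any 1 array left out, at means of 0.43 to 1.26.

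**Figure D3:**
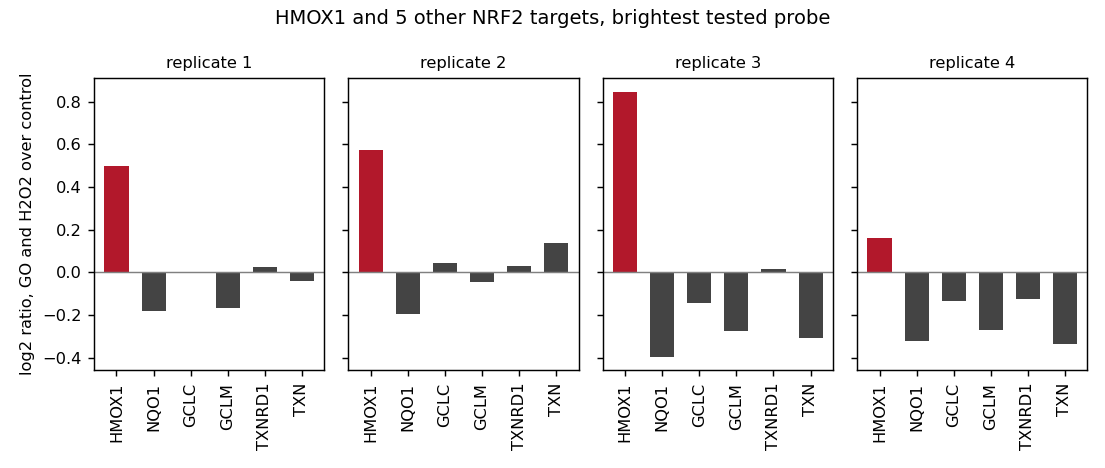
Log2 ratio (GO and H2O2 over control) of 6 NRF2 targets as bars from 0, with 1 panel per array and HMOX1 in red. The HMOX1 bar is the highest on each array, at 0.16 on replicate 4 and 0.85 on replicate 3, and NQO1 and GCLM lie below 0 on all 4.

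Other genes of the pathway were taken from 5 lists with 82 genes, of which 66 were on the array and 57 were tested, with 1 probe per gene. Of these, 3 passed with a higher signal and 13 with a lower one, and 41 did not pass. One of the higher genes, GGT1, entered the test only through the treated channel. With both channels required to be well above background, 2 of 56 genes passed with a higher signal and 12 with a lower one. Over all 8605 tested named genes 8.73% passed with a higher and 8.65% with a lower signal, against 5.26% and 22.8% of the 57 list genes tested. The median log2 ratio was -0.05 over the lists and -0.01 over all named genes. The genes with a lower signal were mostly in the thioredoxin list (36.4% lower) and in the list of NADPH supply and detoxification (42.9% lower). Within the other 3 lists 9.09% to 10% passed with a lower signal, close to the share over all genes. These shares are descriptive only, because the lists were chosen with earlier results of these data known. Of the 16 list genes that passed, 0 kept their call with median centring, with the methods' t-test, or without replicate 1, 3 or 4.

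Among the NADPH and detoxification genes 6 of 14 passed with a lower signal and 1 with a higher one. UGDH, which makes the UDP-glucuronate used in glucuronidation, had ratios of -0.38, -0.12, -0.32 and -0.30 on replicates 1 to 4 (mean -0.28 ± 0.11, limma adjusted p = 0.0234). TALDO1, the transaldolase of the pentose phosphate pathway, had -0.30, -0.23, -0.35 and -0.14 (mean -0.25 ± 0.09, limma adjusted p = 0.0238). The aldose reductase AKR1B1 had -0.22, -0.33, -0.20 and -0.17 (mean -0.23 ± 0.07, limma adjusted p = 0.0230). All 3 genes were below 0 on each of the 4 arrays. TKT, the transketolase of the pentose phosphate pathway (-0.20 ± 0.08, limma adjusted p = 0.0329), and PIR (-0.28 ± 0.19, limma adjusted p = 0.0461), whose 3 probes all had a mean below 0, also passed with a lower signal. The call of PIR was lost in 11 of 16 other settings, Agilent's processed signals among them. TKT and PIR fall outside the rule for named genes and were chosen after their values were seen. EPHX1, the microsomal epoxide hydrolase, went the other way, with 0.33, 0.22, 0.31 and 0.19 (mean 0.26 ± 0.07, limma adjusted p = 0.0194). The median of the list was -0.16, and its median on single arrays lay between -0.22 and -0.07.

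In the thioredoxin list 4 of 11 genes passed with a lower signal and 0 with a higher one. They were the thioredoxin-like genes TXNL1 (-0.24 ± 0.06, limma adjusted p = 0.0201) and TXNDC17 (-0.22 ± 0.08, limma adjusted p = 0.0287) and the peroxiredoxins PRDX3 of mitochondria (-0.18 ± 0.04, limma adjusted p = 0.0309) and PRDX1 of the cytosol (-0.20 ± 0.09, limma adjusted p = 0.0374). Each of the 4 genes was below 0 on all 4 arrays. The call of PRDX1 was lost in 10 of 16 other settings, Agilent's processed signals among them (-0.14, limma adjusted p = 0.0966), and that of each of the other 3 in 6. The other 7 genes did not pass, and their means lay between -0.13 (PRDX6) and 0.09 (PRDX2).

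In the glutathione list 1 gene of 10 passed in each direction. GSTO1, an omega-class glutathione transferase, had ratios of -0.25, -0.33, -0.31 and -0.15 (mean -0.26 ± 0.08, limma adjusted p = 0.0208). GGT1, the gamma-glutamyl transferase that breaks down extracellular glutathione, had 0.22, 0.30, 0.12 and 0.26 (mean 0.23 ± 0.08, limma adjusted p = 0.0265). GGT1 was well above background on 2 of 4 arrays in the control channel, so it entered the test only through the treated channel, where it was higher. Its test is therefore no support for a rise. GGT1 was left untested where both channels had to be well above background. Agilent's processed signals put its mean at 0.90. SLC7A11, the cystine transporter and a known NRF2 target, did not pass (0.06 ± 0.06, limma adjusted p = 0.290). It lies outside the rule for named genes and was chosen after its value was seen.

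In the haem and iron list 1 gene of 11 passed in each direction. BLVRB, a biliverdin and flavin reductase, had ratios of -0.28, -0.43, -0.64 and -0.35 on replicates 1 to 4 (mean -0.43 ± 0.16, limma adjusted p = 0.0170), the largest decrease in the 5 lists. FTH1, the heavy chain of ferritin, which stores iron, had 0.39, 0.32, 0.38 and 0.23 (mean 0.33 ± 0.08, limma adjusted p = 0.0153). A further FTH1 probe had a mean of 0.03, and the mean of the brighter probe was 0.15 (limma adjusted p = 0.0752) once a running median over signal had been removed, within a range of 0.15 to 0.58 over all alternatives. The constitutive haem oxygenase HMOX2 had a mean of 0.03 ± 0.07 (limma adjusted p = 0.671), and the ferritin light chain FTL had -0.11 ± 0.20 (limma adjusted p = 0.352). These last 2 genes lie outside the rule and were chosen after their values were seen. The remaining 7 genes did not pass.

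Among the NRF2 regulators 1 of 11 passed, with a lower signal. CUL3, the scaffold of the ligase that degrades NRF2, had ratios of -0.13, -0.16, -0.10 and -0.27 (mean -0.16 ± 0.08, limma adjusted p = 0.0499), and its 2 probes passed with the same sign. The value lies at the threshold, and 14 of 16 other settings did not call it. The median of the regulators was 0.03. In all 5 lists together the count of 16 genes fell to 0 without replicate 1, without replicate 3 and without replicate 4.

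**Figure D4:**
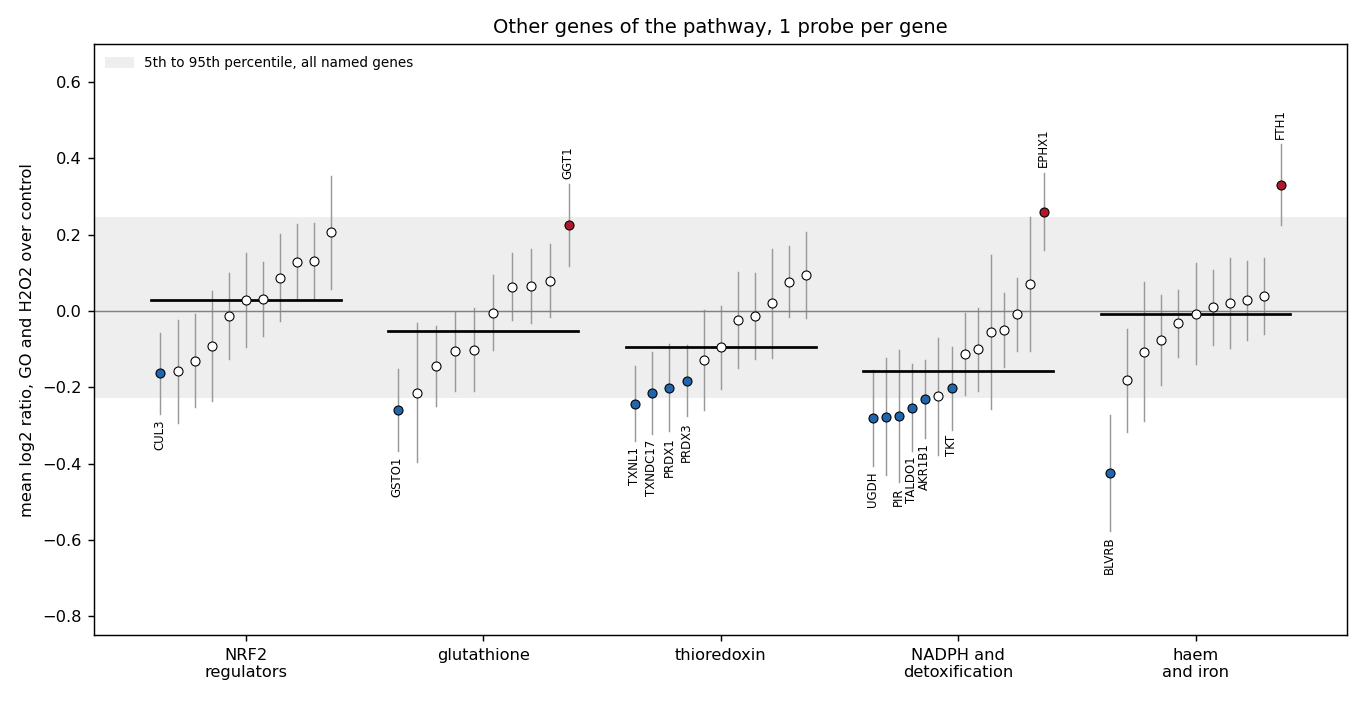
Mean log2 ratio (GO and H2O2 over control) of the tested genes of 5 lists, with 95% confidence intervals as grey lines, list medians as black bars, and filled symbols for genes past the threshold (red higher, blue lower). The grey band holds the 5th to 95th percentile of all named genes. The thioredoxin list has 4 and the NADPH and detoxification list 6 blue symbols, of which 1 is not labelled, and the lowest is BLVRB at -0.43.

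The genes whose log2 ratios on the 4 arrays lay nearest to those of HMOX1 were found by Euclidean distance among 8603 other named genes. They were BNC2 (distance 0.341), IGF2 (0.343), MGP (0.395), FBXW2 (0.414) and FLNC (0.432). BNC2, a zinc finger protein, had ratios of 0.54, 0.50, 0.54 and 0.05, but its other probe had a mean of -0.01. IGF2, a growth factor of muscle, had 0.62, 0.57, 0.67 and 0.43, without the low value of HMOX1 on replicate 4. No gene of the 5 lists was among these 5. The distance depends on the size of the ratios as well as on their pattern. The highest mean in the lists was 0.33, against 0.52 for HMOX1, so the absence is no result about shared regulation.

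**Figure D5:**
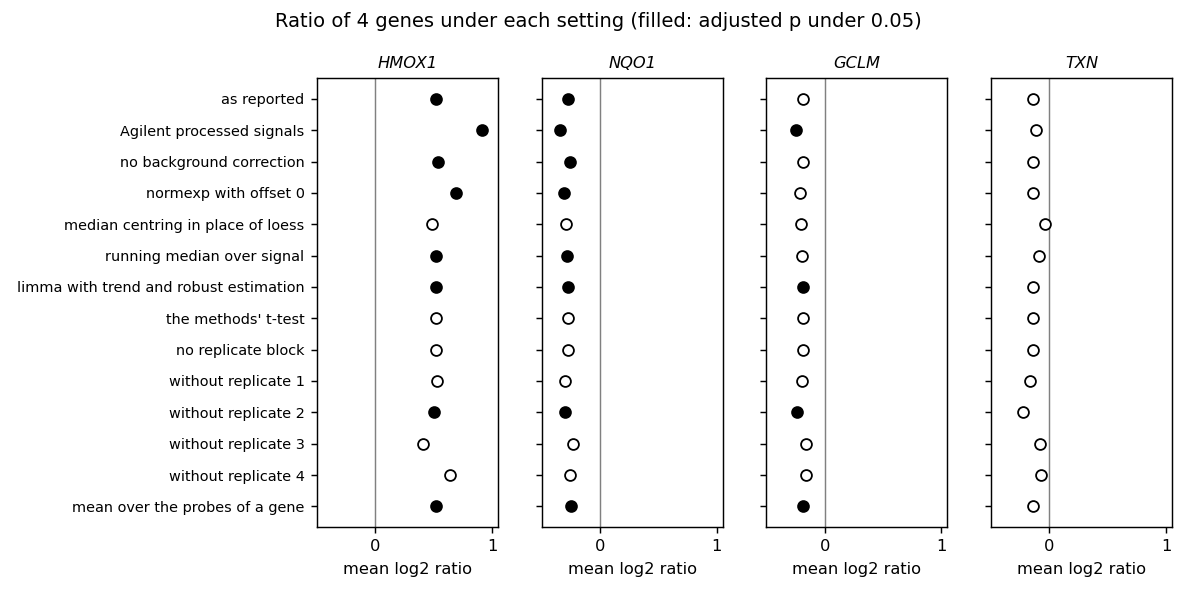
Mean log2 ratio of 4 genes on the horizontal axis under each processing and with each array left out, filled where the adjusted p was under 0.05. HMOX1 lies between 0.41 and 0.91, and NQO1 and GCLM lie below 0 throughout, while the symbols change between filled and open from row to row for these 3 genes.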

How the data were processed

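Gene expression was measured in RNA of treated and control cells on 4 two-colour arrays of 1 slide. The deposited files hold the spot intensities of both dyes, read by the authors with Feature Extraction 10.10.1.1, and a log10 ratio of the deposited processed signals, with background subtracted and dyes normalised, per the file headers. The authors' value table holds the same log10 ratio (largest difference 0, column medians 0), red over green. Mean intensities were corrected with normexp (offset 50) and loess was applied within arrays, control spots having weight 0. The 7 to 16 outlier spots of each array were dropped before replicate spots were averaged. Between 56.7% and 61.4% of the probes were well above background in the treated and between 54.9% and 61.3% in the control channel. Of the probes, 55.6% met this in 1 channel or the other on every array and were tested. The number of arrays limits the precision.

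The log2 ratio was tested against 0 with limma 3.58.1 in R 4.3.3. Tests were two-sided, and p-values were adjusted by Benjamini-Hochberg. Each array is a pair of a treated and a control sample, and its ratio is the paired value. The labels call the arrays biological replicates, and the study used 1 cell line, so that p-values measure at most the spread between cultures of it. If the control RNA was shared between arrays, they leave out the spread of the control cultures. Channel levels are log2 signals after loess and Aquantile. A gene's value is that of its probe with the highest mean signal. Named were the 10 genes with every probe, up to 4 genes per list with the smallest p among those past the threshold, and the 5 nearest to HMOX1. The value of 1 list gene past the threshold is not reported here. Exact permutation tests flipped signs over arrays. The members and lists were chosen with earlier results of these data known. The fit was tested on simulated data with independent noise for each probe and array. Those data held no dye effect and no shared control RNA, so the check does not bear on these limits. Alternatives were Agilent's processed signals, the authors' value table, other background corrections, normalisations and filters, limma with trend and robust estimation, the methods' t-test, the channels as separate samples, the mean over probes and leaving out each array.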

Additional observations from a re-analysis of the deposited data

Results flagged for a closer look

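Among 31 sets of 4 array values, 3 held a value whose gap to its nearest neighbour was over Dixon's critical share of the range, where chance gives about 1 in 20. The TXNRD1 log2 ratio was -0.12 on replicate 4 and 0.02 to 0.03 on the other 3 arrays. The excess of HMOX1 over TXN was 1.16 on replicate 3 and 0.44 to 0.54 on the others, and replicate 3 had both the highest HMOX1 ratio and a low TXN ratio. The TXNDC17 log2 ratio was -0.10 on replicate 1 and -0.26 to -0.25 on the others.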

How the results depend on the processing

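The HMOX1 ratio was above 0 under all 16 alternatives (0.41 to 0.91), and its call was lost in 6. Median centring instead of loess gave 0.49 (limma adjusted p = 0.551). It stayed at 0.52 with the methods' t-test (adjusted p = 0.149) and without the replicate block, when the channels were separate samples (limma adjusted p = 0.135). With 1 array left out it ranged from 0.41 to 0.64. Of the 9 pathway probes tested, the number past the threshold was 2, and it was 4 with Agilent's processed signals, the authors' value table, or limma with trend and robust estimation. It was 0 with median centring, the methods' t-test and no replicate block (2, 3 and 4 at an unadjusted p under 0.05), and 0 to 4 with 1 array left out. Of the 57 list genes tested 16 passed, and 0 did with median centring, 0 with the methods' t-test and 2 with no replicate block (4, 21 and 21 at an unadjusted p under 0.05), and 0 to 18 with 1 array left out. Over all probes 4137 passed, and 12, 5 and 594 did under the same 3 settings. Without replicate 4 the limma count was 0 (6694 at an unadjusted p under 0.05), without replicate 1 it was 2, without replicate 3 it was 38, and without replicate 2 it was 3899. The sign turned for KEAP1 without replicate 2 (-0.0326, up to 0.0636 without another array) and for TXNRD1 without replicate 4 (0.0227, down to -0.0276 without another array). Median centring put TXNDC17 at -0.10 and AKR1B1 at -0.15. The cause of these changes was not tested. No list gene past the threshold changed sign.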

Other observations

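A probe named by a transcript identifier is described in the annotation as BACH1. It was well above background on 1 of 4 arrays and was not tested, and its log2 ratios lay between 0.04 and 0.08.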
